A study of Mus musculus with 4 samples.

Results

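The cytosolic ribosomal proteins are the protein subunits of the ribosome outside mitochondria. Their genes were taken by symbol: names that begin with Rpl or Rps and a digit, with Rplp0, Rplp1, Rplp2 and Rpsa, and without the S6 kinases (Rps6k) and pseudogenes (-ps). The rule found 50 of the 18193 genes measured by a probe set (a group of short probes for one transcript) annotated to a single symbol. Of the 50, 43 were core subunits, 22 of the large and 21 of the small one. Another 6 were paralogs (Rpl22l1, Rpl39l, Rpl3l, Rpl7l1, Rps27l and Rps4l). The last was Rps19bp1, which encodes a protein that binds the Rps19 protein and is no subunit. A further 31 symbols, among them Rplp1, Rpl3, Rpl5 and Rpl10, occurred only in probe sets that also carry other symbols, mostly of pseudogenes or models. They are not described singly here.

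The arrays followed osteoclasts, the cells that resorb bone, as they formed in culture from marrow of C57BL/6 mice, with 1 array for each of 4 groups. Cells taken at 8 to 10 weeks of age were grown for 3 days with 100 ng/ml M-CSF, a macrophage growth factor, and are called bone marrow macrophages (BMM). With 100 ng/ml RANKL, the cytokine that drives osteoclast formation, also present for 2 days, mononuclear pre-osteoclasts (pOC) were obtained. After 2 more days with both factors, the cells were multinucleated osteoclasts on plastic (mOCp) or on dentin slices, a mineralised surface that they resorb (mOCd). All 4 groups share strain and M-CSF, none was a culture kept for those further days without RANKL, and RANKL and time in culture therefore cannot be told apart. Whether an RNA came from 1 animal or from pooled animals is not given in the sources used here.

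Most subunit proteins are present in equal numbers in each ribosome, and cells make them in step with ribosomal RNA. In mammals most ribosomal protein mRNAs begin with a run of pyrimidines directly at the transcription start, the terminal oligopyrimidine (TOP) motif. Through it the kinase mTOR and the RNA-binding protein Larp1 control how many of these mRNAs are translated, so the mRNA level and the rate of protein synthesis can part. Assembly begins in the nucleolus, where a separate set of biogenesis factors makes, modifies and folds the ribosomal RNA. Arrays measure mRNA level and not translation.

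Start sites of core members were looked up to show this motif, in RefSeq promoter windows of mouse build GRCm38.p6 that cover 38 of the 43 core members. A run was counted where a C followed by at least 5 further C or T on the transcribed strand began within 20 bases of the annotated start. It was present in 26 of 44 core windows (59.09%), against 30.79% of all 32851 windows of the table, and in at least 1 window of 24 of the 38 genes. The letters CCGGAAG on either strand, the core of the site bound by ETS-family factors such as Gabpa, occurred in 43.18% of core windows and 8.86% of all windows. AAGATGG on either strand, part of the Yy1 site, occurred in 15.91% and 6.34%. A match is a description of these letters and not a measured site. The stretches below run from 40 bases before the annotated start to 20 bases after it, 5′ to 3′ on the gene's strand, with the run in capitals. Rps6 and Rps10 are shown because their values are discussed below, and Rpl35, Rpl7a and Rplp2 for runs of different length. Rpl38 is shown for a run beginning at the start itself, and Rplp0 as a member with no such run in this window.
Rps6, chr4:86857348-86857407, minus strand: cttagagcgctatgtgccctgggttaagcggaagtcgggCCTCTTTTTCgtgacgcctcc
Rps10, chr17:27635225-27635284, minus strand: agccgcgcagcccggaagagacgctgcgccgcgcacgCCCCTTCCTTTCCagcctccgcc
Rpl35, chr2:39005112-39005171, minus strand: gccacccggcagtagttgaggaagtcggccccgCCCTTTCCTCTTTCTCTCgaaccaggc
Rpl7a, chr2:26910767-26910826, plus strand: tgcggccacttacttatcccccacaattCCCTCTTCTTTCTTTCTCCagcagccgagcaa
Rplp2, chr7:141447611-141447670, plus strand: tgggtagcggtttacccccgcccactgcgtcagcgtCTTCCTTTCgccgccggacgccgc
Rpl38, chr11:114668540-114668599, plus strand: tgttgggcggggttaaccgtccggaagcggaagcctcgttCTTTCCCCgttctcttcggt
Rplp0, chr5:115559427-115559486, plus strand: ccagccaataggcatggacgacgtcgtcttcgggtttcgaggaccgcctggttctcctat

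Values are linear signal intensities, scaled by the depositors so that each array has the same trimmed mean of 100.0, and no replicates exist. Every comparison below therefore describes a pair of arrays, with no test, and an intensity of one gene is not set against that of another. Intensities under an array's median probe set (12.7 in BMM and 14.5 in pOC, with 14.8 in mOCp and 15.8 in mOCd) were raised to that floor. A gene was eligible in a comparison when its higher value reached the 75th percentile of its array, which lay between 77.8 and 87.0, and a difference of at least 2-fold was needed to count it as higher or lower. The labelled cell types were checked by their markers. All 10 osteoclast markers exceeded the floor in pOC, mOCp and mOCd and 4 of 10 did in BMM, with summed intensities of 31222.5, 50208.8, 50195.4 and 124.2 in that order. The 9 macrophage markers with a probe set summed to 6188.7 to 11031.8 on the 3 RANKL arrays and to 23023.0 in BMM. Csf1r was the largest part of the sums on the RANKL arrays, with 4898.6 in pOC, 7511.7 in mOCp and 7644.1 in mOCd. It read 5815.9 in BMM and was the only one of the 9 that was higher in mOCp or mOCd than in BMM. Neutrophil markers, of which 6 or 7 of 8 exceeded the floor on each array, summed to 323.5 in BMM and 841.8 in pOC, with 1886.1 in mOCp and 968.6 in mOCd. Stromal and osteoblast markers summed to 53.8 to 263.8, with at most 3 of 6 above the floor. The part of admixed cells in the values below was not tested, and in such bulk RNA fewer cells of a type and less RNA per cell cannot be told apart.

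Of the 50 members, 48 exceeded the floor on all 4 arrays and Rpl3l, the striated muscle form of Rpl3, and Rps16 lay under it on every one, although a probe set that Rps16 shares with Rps16-ps2 and a model symbol read 5961.8 to 9158.5. For 36 members the mean log2 intensity was at least 10, and these are called bright members here, a split chosen after the values were seen. Their median intensity was 5102.1 in BMM and 6425.8 in pOC, with 6221.4 in mOCp and 5399.5 in mOCd. On these arrays, in the same order, the 99th percentile of non-control probe sets was 2731.5, 3033.6, 3635.2 and 3411.9. The bright members read highest in pOC for 18 genes, in mOCp for 16, in BMM for 2 and in mOCd for 0. They read lowest in BMM for 25 genes and in mOCd for 11.

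**Figure D1:**
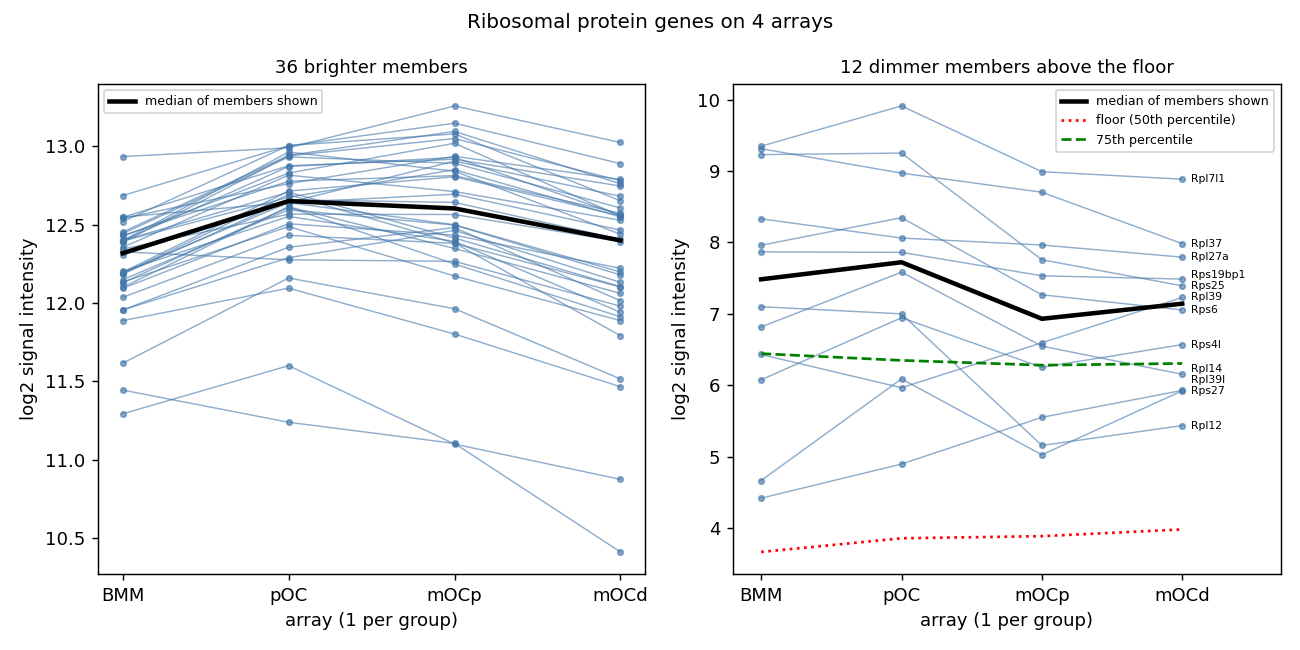
Log2 signal intensity of 36 bright members (left) and 12 dimmer members above the floor (right) on the arrays of BMM, pOC, mOCp and mOCd, 1 line per gene, with the median of the genes shown in black and the floor and 75th percentile of each array as dotted and dashed lines. The left panel spans few log2 units and its median lies highest in pOC and mOCp. Of the eligible dimmer members, 5 read higher and 4 lower in pOC against BMM. In mOCp against pOC 9 of 10 read lower (median log2 ratio −0.81), and in mOCd against pOC again 9 of 10 (median −1.01).

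In pOC against BMM, ribosomal protein mRNAs read slightly higher, by about the same small amount in most members. No eligible member reached 2-fold on its chosen probe set. Rps27, too dim to be eligible, read 25.4 in BMM and 68.1 in pOC (log2 ratio 1.42). A brighter probe set that it shares with Rps27rt had a ratio of 0.43. Of 45 eligible members 0 were at least 2-fold higher and 0 at least 2-fold lower, where 11.1% of the 7256 eligible genes were higher and 13.2% lower. The median log2 ratio was 0.39, a 1.31-fold difference, with quartiles of 0.22 and 0.49, against 0.05 over all eligible genes. The 795 other genes with a mean log2 intensity of at least 10 had a median of 0.27, nearer to that of the members. As deposited, 39 of the 45 members read higher in pOC and 6 lower, but cyclic loess left 26 higher and 19 lower with a median of 0.04, and quantile normalization 34 and 10 with a median of 0.13. Large-subunit core members had a median of 0.46 and small-subunit ones of 0.33. The SD of disagreement between probe sets of the same member was 0.15 over 20 members in this comparison, which leaves out the spread between cultures and arrays.

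The stalk proteins Rplp0 and Rplp2, which recruit elongation factors to the large subunit, had the same order of values across the arrays. Rplp0 read 5354.3 in BMM and 7848.8 in pOC, with 8474.2 in mOCp and 7032.5 in mOCd. Rplp2 read 5498.2 in BMM and 7272.8 in pOC, with 8297.3 in mOCp and 6017.9 in mOCd. Both were lowest in BMM and highest in mOCp, with log2 ratios of 0.55 and 0.40 in pOC against BMM. Rpsa, a small-subunit protein also known as the laminin receptor precursor, read 4651.4 in BMM and 6463.5 in pOC, with 6387.8 in mOCp and 5425.6 in mOCd, and its pOC and mOCp values were nearly equal. The log2 ratios of pOC over BMM that were furthest above 0 among bright core members belonged to Rpl7a (0.57), Rplp0 (0.55), Rps9 (0.54), Rpl19 (0.52) and Rpl27 (0.51). Over the alternatives tried, Rpl7a ranged from 0.17 to 0.73 and Rps9 from 0.23 to 0.74. The other bright probe sets of Rpl27 gave 0.07 and −0.09, and that of Rps9 gave 0.04. The ranks of Rpl27 and Rps9 therefore rest on the choice of probe set, while Rpl7a, Rplp0 and Rpl19 have 1 single-symbol probe set each.

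Some small-subunit members hardly differed between pOC and BMM on their chosen probe sets. Rps29 read 7824.1 in BMM and 8133.2 in pOC, with 9787.7 in mOCp and 8327.5 in mOCd. Rps28 read 5985.5 in BMM and 6388.1 in pOC, with 7667.2 in mOCp and 6564.7 in mOCd. Rps20, whose product sits in the head of the small subunit, read 5133.1 in BMM and 4955.7 in pOC, with 4922.2 in mOCp and 4037.2 in mOCd. The log2 ratios of pOC over BMM were 0.06 for Rps29, 0.09 for Rps28 and −0.05 for Rps20, and the signs of all 3 changed among the alternatives. Other bright probe sets gave 0.15 and 0.31 for Rps29, 0.34 and 0.26 for Rps28 and 0.002 for Rps20. Among bright members, Rps20 and Rpl22l1 were the pair that read lower in pOC than in BMM. The plot of member ratios lists all 36.

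In mOCp against pOC, the bright members differed little as deposited, but the direction of the family depended on the scaling. Of 46 eligible members 0 were at least 2-fold higher and 4 at least 2-fold lower, where 8.8% of 7192 eligible genes were higher and 11.4% lower. All 4 were dimmer members, described below, and no bright member reached 2-fold on its chosen probe set. The median over the 46 was −0.09, with 17 above 0 and 29 below, and it turned to 0.04 with median scaling. It came to −0.26 with quantile normalization (44 of 46 lower), −0.24 with cyclic loess (43 of 46 lower) and −0.52 with spike-in scaling (45 of 46 lower). The 795 other bright genes had a median of 0.25. Among bright members the ratios ran from −0.50 for Rps27l to 0.27 for Rps29, with 16 above 0 and 20 below. Rps28 and Rps29 lay at the upper end, at 0.26 and 0.27. Rpl8, a large-subunit protein near the peptidyl transferase centre, lay at the lower end at −0.36, with 4863.6 in mOCp and 6256.4 in pOC. Rps28 and Rps29 had ratios of −0.17 and −0.16 in their lowest alternatives, while Rpl8 stayed below 0 in all of them.

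In mOCd against pOC, most members read lower on the dentin array. Of 46 eligible members 42 read lower and 4 higher, with a median log2 ratio of −0.34 (a 1.26-fold difference), against −0.01 over all eligible genes and 0.12 over the 795 other bright genes. At 2-fold, 5 were lower and 1 higher, where 12.3% of 7230 eligible genes were lower and 10.8% higher. The median stayed below 0 in all 11 alternatives, from −0.69 to −0.24. Rpl7, a large-subunit protein, read 3542.7 in mOCd and 6612.4 in pOC on its chosen probe set (log2 ratio −0.90), the lowest ratio among bright members. A probe set of Rpl7 of nearly equal intensity gave −0.43, with 4183.8 in mOCd and 5616.7 in pOC, and a further one −1.02, so this rank rests on the choice of probe set. Rpl8 had 3851.7 in mOCd and 6256.4 in pOC (−0.70), Rps9 2926.6 in mOCd and 4572.7 in pOC (−0.64), and Rpl11 2827.3 in mOCd and 4371.2 in pOC (−0.63). Rpl11 is known, with Rpl5 and the 5S ribosomal RNA, to bind Mdm2 when ribosome assembly is disturbed, and Rpl5 has no probe set of its own here. Rps14, Rps28 and Rps29 were the bright members that did not read lower in mOCd on their chosen probe sets. Their ratios were 0.03, 0.04 and 0.03, and the signs changed among the alternatives. Their other bright probe sets all read lower in mOCd, at −0.08 for Rps14, −0.130 and −0.127 for Rps28, and −0.05 and −0.04 for Rps29.

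**Figure D2:**
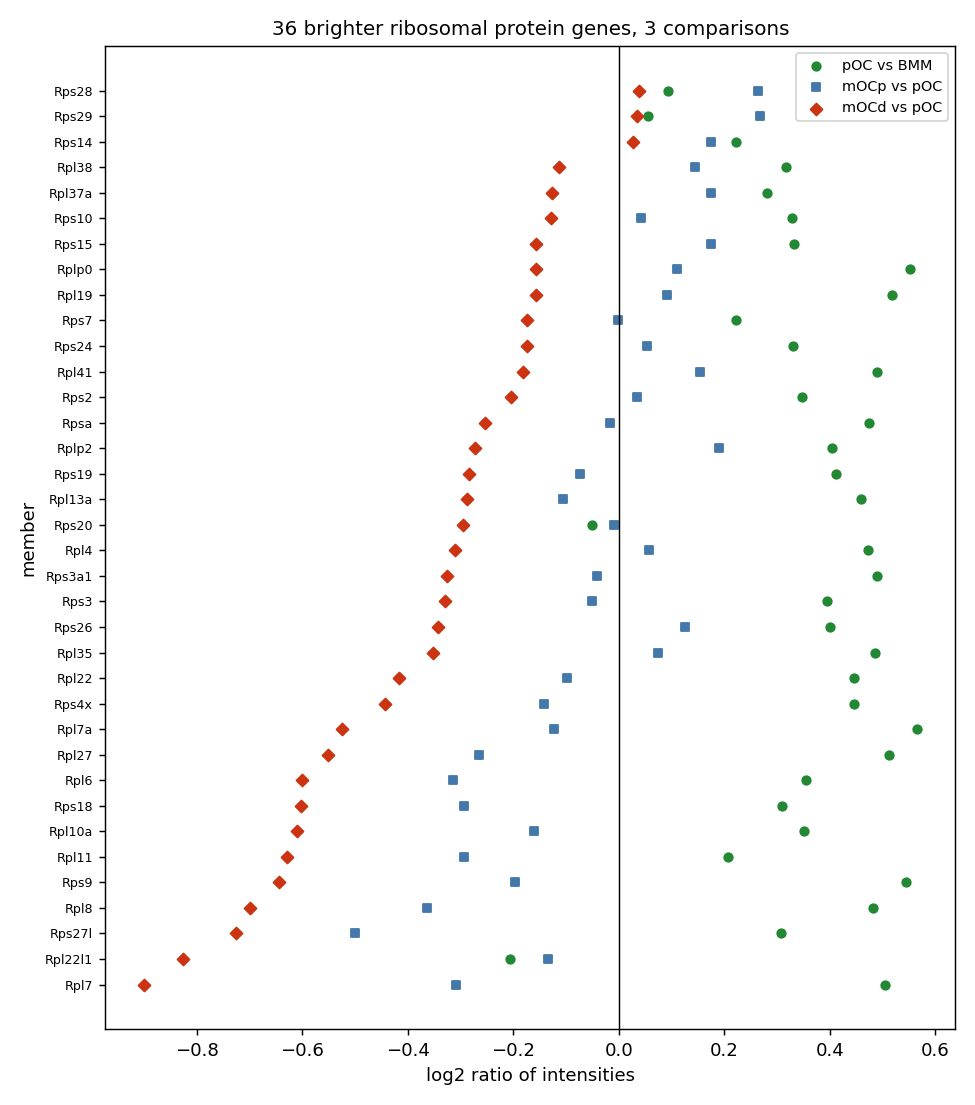
Log2 ratios of the 36 bright members in pOC against BMM (circles), mOCp against pOC (squares) and mOCd against pOC (diamonds), in the order of the mOCd against pOC ratio, 1 row per gene and 1 array per group. The circles of 34 genes lie right of 0 and the diamonds of 33 lie left of it, while squares fall on both sides, with the medians changing under other scalings as the text gives.

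The comparison of mOCd with mOCp sets dentin against plastic, with the same factors and the same time in culture per the labels. All 36 bright members read lower in mOCd than in mOCp as deposited. Among the 45 eligible members 43 read lower and 2 higher, with a median log2 ratio of −0.29 (a 1.22-fold difference) against 0.01 over all eligible genes. At 2-fold, 0 were lower and 0 higher, where 2.55% of 6915 eligible genes were lower and 2.15% higher. The quartiles were −0.37 and −0.22, so the members lay close together. The median stayed below 0 in all 11 alternatives and came to −0.13 with quantile normalization (40 of 45 lower) and to −0.11 with cyclic loess (39 of 45 lower). The 795 other bright genes had a median of −0.09 here. Large-subunit core members had a median of −0.33 and small-subunit ones of −0.24.

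Rpl22l1 had the lowest ratio among bright members in mOCd against mOCp, at −0.69, with 1361.1 in mOCd and 2199.6 in mOCp. Rpl7 followed at −0.59, with 3542.7 in mOCd and 5338.5 in mOCp, while its probe set of nearly equal intensity gave −0.22. Rps26, a small-subunit protein at the mRNA exit site, stood at −0.47, with 4134.1 in mOCd and 5714.5 in mOCp. The ratio closest to 0 was that of Rps14, at −0.15, with 7070.9 in mOCd and 7832.6 in mOCp. Probe sets outside the 50 chosen ones were counted as well. Of 34 other bright probe sets annotated to a single member, 34 read lower in mOCd than in mOCp, with a median of −0.35. Of 80 bright probe sets shared by a ribosomal protein symbol and other symbols, 80 read lower, with a median of −0.32. These probe sets measure the same RNA on the same arrays, so they add no replicate. The dentin array also stood apart in the probe sets that follow RNA quality for the transferrin receptor, whose 3′ over 5′ log2 ratio was 1.70 in mOCd, 0.84 in mOCp, 1.01 in pOC and 1.00 in BMM. The same ratio for Gapdh lay between −0.43 and −0.29 and for beta-actin between 0.17 and 0.29 on the 4 arrays. The part of RNA quality in the dentin difference was not tested.

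In mOCp against BMM, members read higher as deposited, with a median of 0.34 over 45 eligible members, against −0.06 over all eligible genes and 0.41 over the 795 other bright genes, but the median turned to −0.16 with quantile normalization, −0.24 with cyclic loess and −0.09 on unsuffixed probe sets. At 2-fold, 0 members were higher and 2 lower, where 16.9% of 7459 eligible genes were higher and 19.4% lower. Rplp0 kept its sign, with 8474.2 in mOCp and 5354.3 in BMM (0.66, and 0.02 to 0.82 over the alternatives). Rpl22l1 kept the opposite sign, with 2199.6 in mOCp and 2785.1 in BMM (−0.34, and −0.72 to −0.18). The direction of the family in this comparison therefore depends on the scaling.

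**Figure D3:**
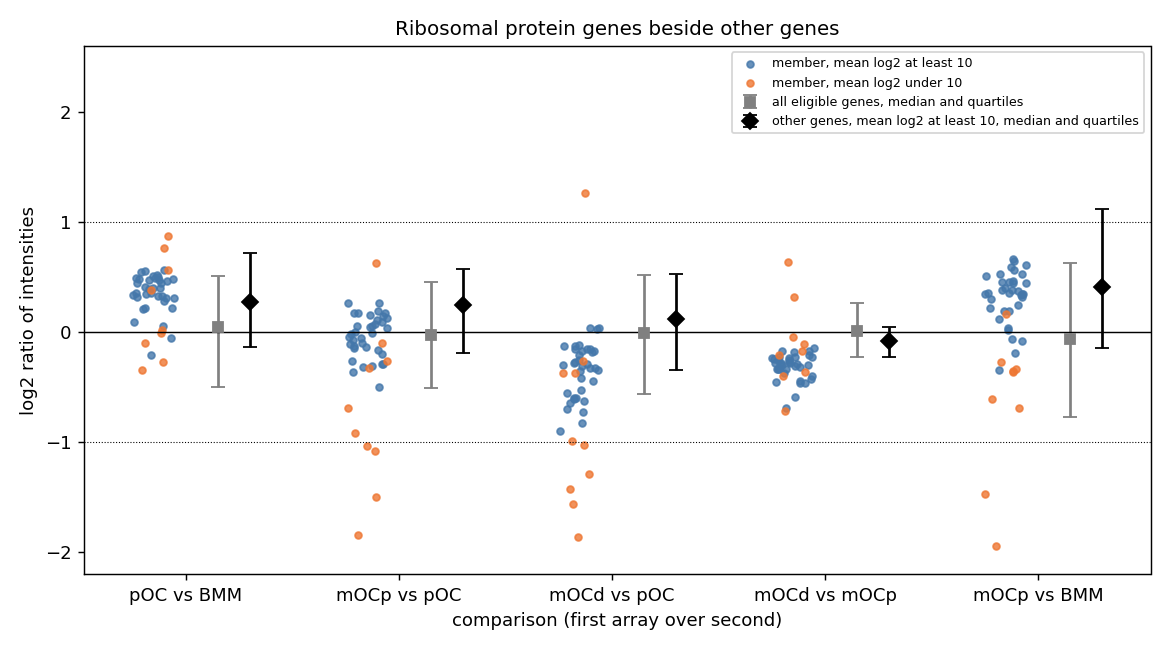
Log2 ratios of eligible members with a mean log2 intensity of at least 10 (blue) and under 10 (orange) in 5 comparisons, beside the median and quartiles of all eligible genes (grey) and of other genes with a mean log2 of at least 10 (black), with dotted lines at 2-fold. No blue point crosses a dotted line in any comparison, and the medians of mOCp against pOC and mOCp against BMM change sign under other scalings.

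The eligible members past 2-fold on their chosen probe sets were all dimmer ones. Rpl12, a protein at the base of the stalk, read 35.7 in mOCp, 43.3 in mOCd and 128.0 in pOC, with 137.2 in BMM, and was 3.59-fold lower in mOCp than in pOC. Rps25, a small-subunit protein needed by some viral internal ribosome entry sites, read 216.4 in mOCp, 168.0 in mOCd, 609.4 in pOC and 600.3 in BMM. Its log2 ratio was −1.86 in mOCd against pOC. Rps6, the substrate of the S6 kinases, read 154.0 in mOCp, 133.0 in mOCd, 325.4 in pOC and 249.2 in BMM, and Rpl14, a large-subunit protein, 93.6 in mOCp, 71.2 in mOCd, 191.9 in pOC and 112.7 in BMM. These 4 genes were the ones lower at 2-fold in mOCp against pOC and again in mOCd against pOC, 2 comparisons that share the pOC array. Rpl12 and Rps25 were also the 2 lower at 2-fold in mOCp against BMM. Rpl7l1, the paralog of Rpl7, was lower in mOCd, at 472.9 against 962.9 in pOC, and a second probe set of Rpl7l1 had 329.0 in mOCd and 518.4 in pOC (−0.66). Rpl39, whose product lines the exit tunnel, was the single eligible member past 2-fold upward, with 150.1 in mOCd and 62.5 in pOC (1.26).

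For 5 of these genes a brighter probe set existed that the annotation gives to the gene together with pseudogene or model symbols, and there the differences were smaller. The one annotated to Rps6 together with Rps6-ps4 read 8336.2 in mOCp, 7064.0 in mOCd, 7868.3 in pOC and 5938.0 in BMM, so it was 0.08 higher on the log2 scale in mOCp than in pOC, where the probe set of Rps6 alone was lower by 1.08. The one annotated to Rps25 together with 2 model symbols had log2 ratios of 0.12 in mOCp against pOC and −0.34 in mOCd against pOC. The one annotated to Rpl12 together with 3 model symbols had ratios of −0.17 and −0.53, and that of Rpl14 with Rpl14-ps1 of −0.34 and −0.70. Further bright probe sets of Rpl14 with Rpl14-ps1 had lower ratios in mOCd against pOC, from −1.09 to −0.78. The one annotated to Rpl39 together with 1 model symbol had 7759.8 in mOCd and 7242.9 in pOC, a ratio of 0.10. In all, 11 members had a brighter shared probe set of this kind. Which transcripts either kind of probe set reads was not tested, and 2-fold differences on the probe sets of single genes are not values for the bulk of those mRNAs.

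Probe sets of one gene could also part at high intensity. Rps10, a small-subunit protein, read 6866.8 in mOCd and 7511.5 in pOC on the chosen probe set (−0.13). Another of its probe sets read 553.9 in mOCd and 2283.2 in pOC (−2.04), and 3 further ones lay between −0.64 and −0.47. Of 20 members with several measured probe sets, 20 had the same sign in both compared sets in mOCd against mOCp, 18 in pOC against BMM, 17 in mOCp against pOC and 16 in mOCd against pOC.

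Several members are studied for roles outside protein synthesis or in disease, and the chosen probe sets of those named here did not pass 2-fold in any comparison. Rpl13a, which in human monocytes leaves the ribosome after interferon gamma and silences inflammatory mRNAs, read 5238.0 in BMM and 7206.3 in pOC, with 6701.6 in mOCp and 5902.9 in mOCd. Rps3, which also takes part in DNA repair and binds NF-kappaB, read 4198.9 in BMM and 5521.7 in pOC, with 5330.2 in mOCp and 4394.2 in mOCd. Rps19, the gene most often mutated in human Diamond-Blackfan anaemia, read 4368.7 in BMM and 5812.2 in pOC, with 5526.7 in mOCp and 4771.6 in mOCd. All 3 had their highest value in pOC and their lowest in BMM. Of 3 other probe sets of Rpl13a, 1 passed 2-fold in pOC against BMM, with 3496.4 in pOC and 1646.5 in BMM (1.09), and another in mOCd against pOC, with 1018.3 in mOCd and 2047.7 in pOC (−1.01). Rps14, whose loss of a copy impairs red cell formation in a human myelodysplasia, had its highest value, 7832.6, in mOCp and its lowest, 5949.6, in BMM. Rpl38, needed in mouse embryos for translation of Hox mRNAs, read 6584.5 in BMM and 8204.1 in pOC, with 9068.2 in mOCp and 7582.0 in mOCd, the same order as Rps14 save that its mOCd value lay under the pOC one.

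The paralogs did not all follow their parent genes. Rpl22l1, which in mouse is repressed by the Rpl22 protein, read 2785.1 in BMM and 2415.3 in pOC, with 2199.6 in mOCp and 1361.1 in mOCd. It was highest in BMM and lowest in mOCd, as Rps20 was, and its log2 ratio in pOC against BMM stayed below 0 in all alternatives (−0.46 to −0.04). Rpl22 itself read 4539.4 in BMM and 6184.7 in pOC, with 5778.2 in mOCp and 4635.5 in mOCd, with a ratio of 0.45 in pOC against BMM. Rps27l, a p53 target, read 2507.5 in BMM and 3102.6 in pOC, with 2193.5 in mOCp and 1876.3 in mOCd. Its log2 ratio was −0.73 in mOCd against pOC, and its 2 other probe sets gave −0.74 and −0.83. Rpl39l, the paralog of Rpl39 best known from male germ cells, read 21.4 in BMM and 29.8 in pOC, with 46.9 in mOCp and 60.9 in mOCd and never reached the 75th percentile, so it was not eligible. Rps4x, the X-linked form of its subunit, read 4683.6 in BMM and 6381.9 in pOC, with 5785.7 in mOCp and 4695.2 in mOCd. Rps4l read 67.5 in BMM and 123.3 in pOC, with 76.2 in mOCp and 95.0 in mOCd, near the eligibility limit. Rps19bp1, the member that is no subunit, read 233.6 in BMM and 232.5 in pOC, with 185.2 in mOCp and 179.4 in mOCd. Fau, a small-subunit protein made as a ubiquitin-like fusion, which the symbol rule does not include, read 4133.3 in BMM and 5761.7 in pOC, with 6339.3 in mOCp and 5116.8 in mOCd, the same order as Rplp0.

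The genes that build ribosomes had larger differences between pOC and the mature cells. Of 43 ribosome biogenesis genes measured, 37 were at least 2-fold lower in mOCp than in pOC and 0 higher, where 11.4% of all eligible genes were lower, with a median log2 ratio of −1.34 (2.54-fold). In mOCd against pOC 36 of 43 were lower and 0 higher, where 12.3% of all were lower, with a median of −1.40. Over the alternatives these medians lay between −1.78 and −1.22 and between −1.75 and −1.30. In pOC against BMM 3 of 43 (6.98%) were higher and 0 lower (median 0.64), a share under the 11.1% of all eligible genes, and in mOCd against mOCp 0 of 32 eligible ones passed 2-fold either way (median −0.01, with a sign that changed among the alternatives). Against BMM, 14 of 41 were lower in mOCp and 1 higher (median −0.80), where 19.4% of all were lower. The list covers rRNA synthesis, nucleolar processing and subunit assembly, and it was drawn up with earlier results of these arrays known.

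Nop58, a core protein of the particles that guide rRNA methylation, read 47.4 in mOCp and 442.8 in pOC (9.34-fold lower), with 65.5 in mOCd and 264.4 in BMM. Dkc1, the rRNA pseudouridine synthase, read 84.3 in mOCp and 649.1 in pOC (7.70-fold lower), with 113.1 in mOCd and 419.7 in BMM. Fbl, the rRNA methyltransferase fibrillarin, read 545.4 in mOCp and 1685.3 in pOC, with 599.2 in mOCd and 990.4 in BMM. All 3 lay highest in pOC and lowest in mOCp. Polr1b, a catalytic subunit of RNA polymerase I, read 211.0 in pOC and 88.2 in BMM, and 53.6 in mOCp and 59.5 in mOCd. Nop10, a small protein of the pseudouridylation particles, was an exception, with 3051.6 in pOC, 1379.6 in BMM, 3057.0 in mOCp and 3288.9 in mOCd. In the same pair of arrays in which Dkc1 had a log2 ratio of −2.95 in mOCp against pOC, Rplp0 had 0.11 (−0.32 to 0.23 over the alternatives).

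**Figure D4:**
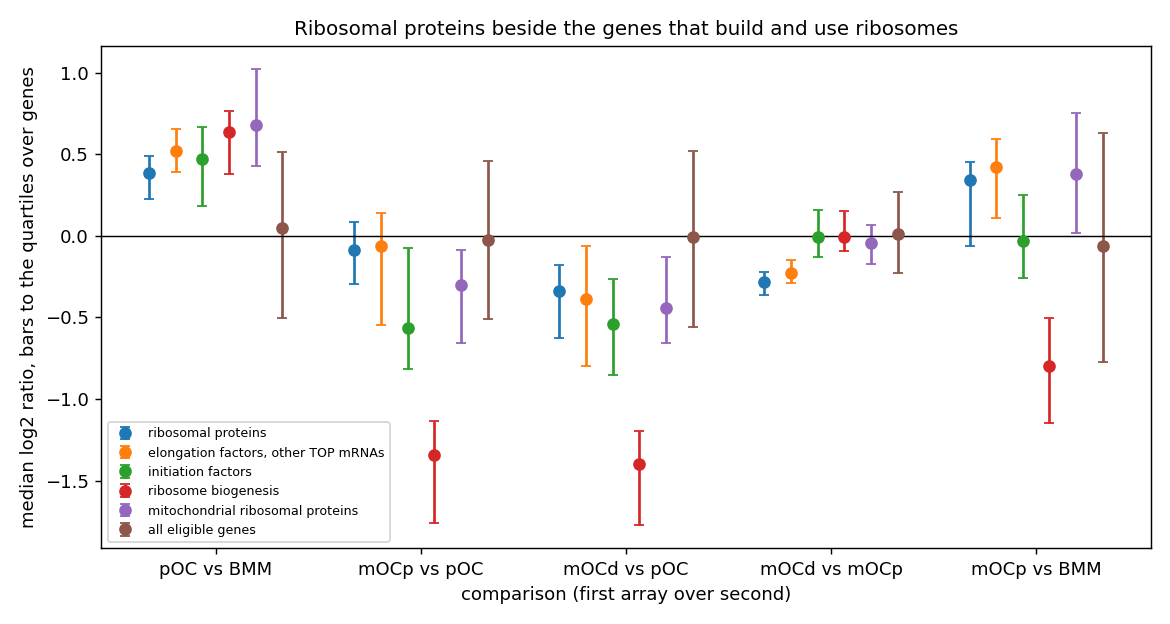
Median log2 ratio, with bars to the quartiles over genes, of eligible ribosomal proteins, elongation factors and other TOP mRNAs, initiation factors, ribosome biogenesis genes, mitochondrial ribosomal proteins and all eligible genes in 5 comparisons of 1 array each. Biogenesis genes lie at −1.34 in mOCp against pOC and −1.40 in mOCd against pOC. The ribosomal proteins lie at −0.09 and −0.34 in these comparisons, and the first value runs from −0.52 to 0.04 under other scalings.

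Other genes of the translation machinery were counted in the same way. Among 15 elongation factors and other known TOP mRNAs, 0 passed 2-fold in pOC against BMM (median 0.52), 2 were lower in mOCp against pOC (median −0.06, above 0 with median scaling and on unsuffixed probe sets) and 3 were lower in mOCd against pOC (median −0.39). Those 3 were Eef1d, an exchange factor subunit for elongation, Npm1, the nucleolar protein nucleophosmin, and Hnrnpa1, an RNA-binding protein. Set against the share of all eligible genes, 13.3% of the TOP list and 11.4% of all were lower in mOCp against pOC, while in mOCd against pOC 12.3% of all were lower. Npm1 read 2391.1 in mOCd and 5297.5 in pOC (−1.15). In mOCd against mOCp, 14 of the 15 read lower, with a median of −0.23. Of 24 initiation factors 5 were higher in pOC against BMM, namely Eif2b1, Eif2b3, Eif2b4, Eif3l and Eif6 (median 0.47), or 20.8% where 11.1% of all were higher. In mOCp against pOC 3 were lower, namely Eif2b3, Eif2b4 and Eif3b (median −0.57), or 12.5% and near the 11.4% of all. In mOCd against pOC 0 passed 2-fold (median −0.54), where 10.8% of all were higher and 12.3% lower. In mOCp against BMM 0 did (median −0.03, above 0 with median scaling), where 16.9% of all were higher and 19.4% lower. Eif4a1, the RNA helicase of initiation, was the one past 2-fold in mOCd against mOCp, at 2727.1 in mOCd and 5758.9 in mOCp, a difference in the same direction as that of the subunits but larger.

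Mitochondrial ribosomal proteins, the most alike family, had 22 of 76 at least 2-fold higher and 0 lower in pOC against BMM, with a median log2 ratio of 0.68, or 28.9% where 11.1% of all eligible genes were higher. They had a median of −0.30 in mOCp against pOC with 3 lower (3.95%), and of −0.44 in mOCd against pOC with 5 lower (6.58%), shares under the 11.4% and 12.3% of all. In mOCd against mOCp the median was −0.05, with a sign that changed with cyclic loess and spike-in scaling, where the cytosolic ones had −0.29. In mOCp against BMM 11 were higher (14.5%, under the 16.9% of all) and 1 lower (median 0.38).

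Among 21 kinases, repressors and transcription factors that act on ribosomal protein synthesis, 2 of 18 eligible ones (11.1%) were higher in pOC against BMM, the same share as over all genes. There 1 (5.6%) was lower, where 13.2% of all eligible genes were. In mOCp against pOC 1 of 20 (5.0%) was higher and 0 lower, where 8.8% of all were higher and 11.4% lower. In mOCd against pOC 0 of 19 were higher and 1 (5.3%) lower, where 10.8% of all were higher and 12.3% lower. In mOCd against mOCp 0 of 20 were higher and 1 (5.0%) lower, where 2.15% of all were higher and 2.55% lower. In mOCp against BMM 2 of 20 (10.0%) were higher and 1 (5.0%) lower, where 16.9% of all were higher and 19.4% lower. Eif4ebp1, the mTOR target that blocks cap-dependent initiation, read 680.1 in BMM and 1685.1 in pOC, with 3203.0 in mOCp and 2875.9 in mOCd, with a log2 ratio of 1.31 in pOC against BMM and 2.24 in mOCp against BMM. Eef2k, the kinase that inhibits elongation factor Eef2, read 29.3 in BMM and 92.8 in pOC, with 86.6 in mOCp and 122.6 in mOCd. Rps6ka3, a kinase of the RSK family that also phosphorylates the Rps6 protein, read 736.9 in BMM and 142.1 in pOC, with 239.4 in mOCp and 186.3 in mOCd. Eif4ebp1 and Eef2k were thus lowest and Rps6ka3 highest in BMM. Myc, a transcription factor of ribosome production, read 224.0 in mOCd and 532.0 in pOC (−1.25), with 303.7 in mOCp and 465.1 in BMM. Max, the partner of Myc, read 102.0 in mOCp and 35.5 in pOC (1.52), and 20.8 in mOCd. Its pOC value lay under the 75th percentile of that array (81.5), and its mOCd value lay near the floor of 15.8. Over all eligible members of this list the median lay between −0.20 and 0.10 in the 5 comparisons.

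The scaling of the arrays sets how much of a small shared shift remains. With the spike-in controls brought to the same level, the median of all eligible genes moved to 0.21 in pOC against BMM, −0.47 in mOCp against pOC, −0.37 in mOCd against pOC and −0.34 in mOCp against BMM. The members moved with it, and relative to that median they stood at 0.34, −0.05, −0.32 and 0.41, where the deposited values gave 0.34, −0.06, −0.33 and 0.40. Quantile normalization and cyclic loess, which adjust bright genes separately from dim ones, gave 0.06 and 0.04 in pOC against BMM and −0.25 and −0.26 in mOCp against pOC, again relative to all eligible genes. In mOCd against mOCp the members lay below that median by 0.15 and 0.16 with these methods and by 0.29 as deposited. Across the 36 bright members, the Pearson correlation of mean log2 intensity with the log2 ratio was 0.31 in pOC against BMM, 0.67 in mOCp against pOC, 0.73 in mOCd against pOC, 0.43 in mOCd against mOCp and 0.77 in mOCp against BMM. Across the 48 members above the floor on all arrays, the correlation was 0.03, 0.51, 0.11, −0.64 and 0.48 in the same order. It is given as a description, since these points share the arrays and the probe sets differ in sequence.

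**Figure D5:**
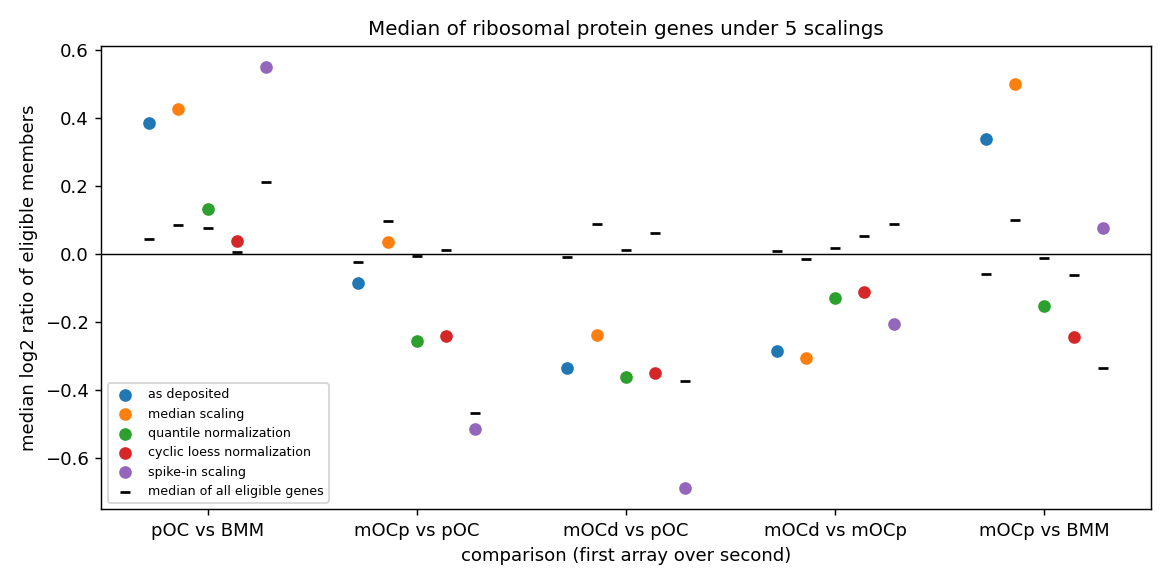
Median log2 ratio of eligible members in 5 comparisons, with the deposited scaling, median scaling, quantile normalization, cyclic loess and spike-in scaling as coloured points and the median of all eligible genes as black dashes. Members lie above 0 in pOC against BMM and below 0 in mOCd against pOC and mOCd against mOCp under all 5, while in mOCp against pOC and mOCp against BMM the side of 0 depends on the scaling.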

How the data were processed

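RNA of 4 groups was measured on 1 single-channel array each. The deposited values are linear signal intensities, 1 per probe set; the submitters' processing notes list MAS5, and its version is not given in the sources used here. On each array the deposited values have the same trimmed mean (2% off each end), which removes differences in total mRNA, and dim values are imprecise after background subtraction. Of 45101 probe sets, 64 controls were left out of the gene values; 34945 of the others carried 1 symbol in a 2016 platform annotation, 932 several and 9160 none listed.

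Each gene was represented by the single-symbol probe set whose mean log2 intensity was highest. Values were floored at each array's 50th percentile, and log2 ratios were formed in Python 3.11.15 (pandas 2.3.3, numpy 2.4.6). Quantile normalization of the linear intensities and cyclic loess normalization of log2(intensity + 1) used limma 3.58.1 in R 4.3.3. With 1 array per group there was no test, and precision is limited by how few arrays there are. The calling code was run on simulated arrays with large shifts set in genes well above the floor. That run checks the code and not how precise the calls on these arrays are. Probe-set disagreement is the SD of the difference between ratios of 2 probe sets of a gene, divided by the square root of 2.

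Members named are those past 2-fold, the 5 highest and 5 lowest core ratios per comparison, and preset stalk, disease and paralog genes, of which the clearest are printed. Members, lists and rules were chosen with earlier results of these data known. Alternatives covered scaling, floor, probe-set choice and member set (9 planned, 2 added after seeing the data). Sequences are from RefSeq (GRCm38.p6).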

Additional observations from a re-analysis of the deposited data

How the results depend on the processing

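No paired analysis was possible because each group has 1 array, and no array could be left out. The median of the members stayed above 0 in pOC against BMM (0.04 to 0.55) and below 0 in mOCd against pOC (−0.69 to −0.24) and mOCd against mOCp (−0.31 to −0.11) in all 11 alternatives; floors at the 25th and 60th percentile moved none of the counts or medians of the members beyond the set limits. The causes of the differences below were not tested, unless fewer members or probe sets is the alternative itself.

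Cyclic loess gave member medians of 0.039 in pOC against BMM, −0.243 in mOCp against pOC, −0.111 in mOCd against mOCp and −0.244 in mOCp against BMM, the last with the sign turned. It left 2 members lower at 2-fold in mOCp against pOC, and placed 2 members above the median of eligible genes there, 1 in mOCd against pOC and 7 in mOCp against BMM. Quantile normalization gave 0.131, −0.257, −0.131 and −0.155 in the same 4 comparisons, the last again turned, and placed 2, 2 and 9 members above that median in mOCp against pOC, mOCd against pOC and mOCp against BMM. Spike-in scaling gave 0.55 in pOC against BMM, −0.516 in mOCp against pOC, −0.69 in mOCd against pOC and 0.075 in mOCp against BMM, with 1 member higher at 2-fold in pOC against BMM, and 0 higher and 10 lower in mOCd against pOC. Over all eligible genes it changed the split at 2-fold to 284 higher and 1655 lower in mOCp against pOC (633 and 820 as deposited), 443 and 1596 in mOCd against pOC (779 and 886), 957 and 1956 in mOCp against BMM (1258 and 1445), 1034 and 789 in pOC against BMM (809 and 956), and 193 and 146 in mOCd against mOCp (149 and 176). Median scaling turned mOCp against pOC to 0.036, with 2 members lower at 2-fold, and gave splits of 814 and 650 in mOCp against pOC, 914 and 764 in mOCd against pOC and 1479 and 1221 in mOCp against BMM.

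Unsuffixed probe sets alone left 27 members, with medians of −0.328 in mOCp against pOC, −0.552 in mOCd against pOC and −0.094, turned, in mOCp against BMM; 12 lay above the median of eligible genes in pOC against BMM, 5 in mOCp against pOC, 1 in mOCd against pOC and 7 in mOCp against BMM. The mean over probe sets placed 12 above it in mOCp against pOC and 1 in mOCd against pOC, and core members alone 1 in mOCd against mOCp. Counting bright members alone left 0 higher in mOCd against pOC, 0 lower in mOCd against pOC, mOCp against pOC and mOCp against BMM, and 0 above that median in mOCd against mOCp. With shared probe sets included there were 75 members, of which 70 lay above it in pOC against BMM, 39 in mOCp against pOC, 66 in mOCp against BMM and 1 in mOCd against mOCp; at 2-fold 0 were higher and 1 lower in mOCd against pOC, and 0 lower in mOCp against pOC and mOCp against BMM. There Rps25 turned to 0.122 in mOCp against pOC and 0.394 in mOCp against BMM, Rps6 to 0.083 in mOCp against pOC and Rpl12 to 0.157 in mOCp against BMM.

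The other lists turned sign as follows. In mOCd against mOCp, initiation factors came to 0.043 with quantile normalization, 0.092 with cyclic loess, 0.067 with spike-in scaling, 0.026 on unsuffixed probe sets and 0.122 as the mean over probe sets, biogenesis genes to 0.066 with cyclic loess, 0.07 with spike-in scaling and 0.02 as that mean, mitochondrial ribosomal proteins to 0.009 with cyclic loess and 0.032 with spike-in scaling, and the control genes to −0.142 as that mean. Median scaling gave 0.059 for TOP mRNAs in mOCp against pOC, 0.132 for initiation factors in mOCp against BMM and 0.002 for control genes in mOCd against pOC. Unsuffixed probe sets gave 0.147 for TOP mRNAs in mOCp against pOC and −0.12 for control genes in pOC against BMM, and cyclic loess −0.024 for TOP mRNAs in mOCp against BMM.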
